A study of Mus musculus with 12 samples.

Results

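The 10 genes described here encode the enzymes of polyamine synthesis and turnover and the proteins that set the amount of ornithine decarboxylase. They are Odc1, Srm, Sms, Amd1, Azin1, Oaz1, Oaz2, Sat1, Smox and Paox. A probe was assigned to a gene when its accession carried that gene symbol in a RefSeq gene table. All 10 listed genes were found, with 20 probes among the 31861 that were kept, and they stand among 14633 genes with a symbol and 25270 features in all.

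RNA came from whole liver of C57BL/6 mice carrying floxed Myc alleles (MycF/F), with or without an ERT2-Cre transgene, after 2 days on a diet with 0.1% Wy-14643 or on a control diet. Wy-14643 activates PPARα, a nuclear receptor that senses fatty acids in hepatocytes. ERT2-Cre is a Cre recombinase fused to a ligand-binding domain that responds to tamoxifen. Of the MycF/F,ERT2-Cre livers 4 had Wy-14643 and 4 the control diet, and of the MycF/F livers 3 had Wy-14643 and 1, with its RNA described as pooled, the control diet. All groups shared the floxed alleles, and the labels call the Cre-bearing animals ko and the others wt. The transgene's promoter, tamoxifen dosing, age and sex are not stated in the labels. Nor do the labels tie samples to single animals, and the spread behind each p-value may be partly or wholly technical.

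Each of the 12 dual-colour arrays compared a liver sample in Cy5 with a pooled liver reference in Cy3, and each level below is a log2 ratio to that reference. A level of 0 therefore means the same signal as the reference, and levels of different genes are not compared with each other. Differences are Wy-14643 minus control diet or MycF/F,ERT2-Cre minus MycF/F on the log2 scale. A gene is said to have risen or fallen where limma gave a Benjamini-Hochberg adjusted p under 0.05 over all features tested.

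Polyamines are small positively charged molecules that bind nucleic acids and are needed for growth and translation. Ornithine decarboxylase, the product of Odc1, makes putrescine, and spermidine synthase (Srm) and spermine synthase (Sms) extend it with aminopropyl groups that S-adenosylmethionine decarboxylase (Amd1) prepares. Antizymes (Oaz1, Oaz2) bind ornithine decarboxylase and send it to the proteasome, and the antizyme inhibitor Azin1 draws them away. In turnover, Sat1 acetylates spermidine and spermine for export or for oxidation by Paox, while Smox oxidises spermine directly. Odc1 and Srm are textbook targets of MYC.

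The arrays had median Cy5 signals of 2.64 to 4.82 times background, and 64.6% to 77.1% of spots stood well above it. They lay on 3 slides, each with its own scan, and spots marked as outliers made up 5.47% to 8.35% of the arrays of slide 1 and 0.904% to 1.84% of the others. For Myc itself, 2 of 3 probes were lower in MycF/F,ERT2-Cre than in MycF/F livers on Wy-14643, by log2 differences of -1.85 (SE 0.17, limma adjusted p 0.00385) and -1.83 (SE 0.19, limma adjusted p 0.00614), and the third, with 3 and 2 arrays, differed by -0.57 (SE 0.17, limma adjusted p 0.295). Whether any of these probes lies in the deleted part of the gene was not determined. The PPARα target Cyp4a14, a fatty acid hydroxylase, was higher on Wy-14643 in MycF/F,ERT2-Cre livers by 4.65 (SE 0.35, limma adjusted p 3.22e-06).

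On Wy-14643, Odc1, at the start of synthesis, and Smox, in spermine turnover, rose in livers of both genotypes. Srm, the spermidine synthase gene, fell in MycF/F,ERT2-Cre livers. Its difference in MycF/F livers was not called, and neither was the difference between the 2 effects. Among the 10 genes 2 rose and 1 fell in MycF/F,ERT2-Cre livers, where 16.2% of all 25158 features were called, 8.88% higher and 7.33% lower. In MycF/F livers 2 rose and 0 fell, where 6.5% of 24907 features were called, 3.32% higher and 3.18% lower, and by limma 2 of the 10 genes, the same Odc1 and Smox, had an unadjusted p under 0.05, as did 17.4% of all features. The median difference over the 10 genes was -0.03 in MycF/F,ERT2-Cre livers and 0.02 in MycF/F livers, against 0.03 and 0 over all features.

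**Figure D1:**
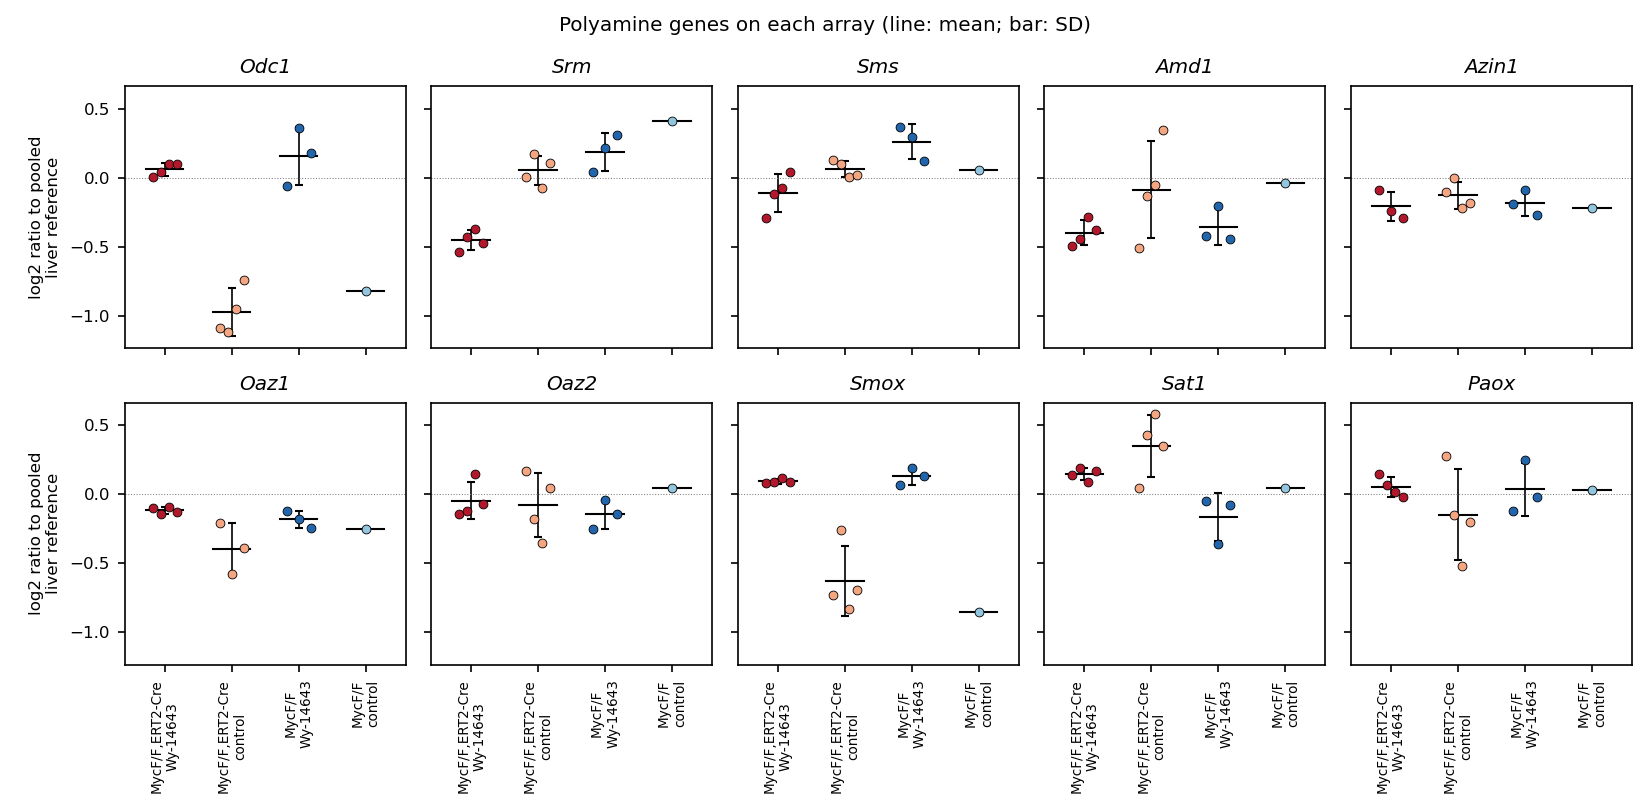
Log2 ratio to the pooled liver reference for the 10 polyamine genes, each point an array, with the group mean as a line and the SD as a bar (the MycF/F control group has 1 array). Odc1 and Smox lie higher on Wy-14643 than on control diet in both genotypes, and Srm lies between -0.54 and -0.37 on the 4 arrays of Wy-14643-fed MycF/F,ERT2-Cre livers, below every other array.

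Odc1 encodes the rate-limiting enzyme of the pathway. Its levels in MycF/F,ERT2-Cre livers were 0.01, 0.04, 0.10 and 0.10 on Wy-14643, against -1.09, -1.12, -0.95 and -0.74 on control diet. The MycF/F levels were -0.06, 0.36 and 0.18 on Wy-14643, against -0.82 on the 1 control array. All 7 Wy-14643 arrays lay above all 5 control arrays. The mean was 0.06 ± 0.04 on Wy-14643 and -0.98 ± 0.17 on control diet in MycF/F,ERT2-Cre livers (SD, n = 4 each), a difference of 1.04 (SE 0.11, 95% interval 0.81 to 1.27, limma adjusted p 3.08e-05), or 2.05-fold. For MycF/F livers the difference was 0.98 (SE 0.17, limma adjusted p 0.00417), or 1.97-fold.

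The order of the 4 group means of Odc1 was MycF/F on Wy-14643 (0.16 ± 0.21, SD, n = 3), MycF/F,ERT2-Cre on Wy-14643 (0.06), MycF/F on control diet (-0.82) and MycF/F,ERT2-Cre on control diet (-0.98). Neighbours of the same diet overlapped, and only the step between the diets exceeded the spread between arrays. The 2 further probes of Odc1 rose as well in MycF/F,ERT2-Cre livers, by 1.55 (SE 0.14, limma adjusted p 1.12e-05) and 1.01 (SE 0.12, limma adjusted p 0.000121). Their differences in MycF/F livers were 1.08 (SE 0.23, limma adjusted p 0.0133) and 0.70 (SE 0.20, limma adjusted p 0.0586), so that the second of them did not pass. Within slides 1, 2 and 3 the Wy-14643 difference of Odc1 in MycF/F,ERT2-Cre livers was 1.12, 0.99 and 0.84, and on slide 2, the one slide with the MycF/F control array, it was 1.17 in MycF/F livers.

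Smox encodes spermine oxidase, which turns spermine back into spermidine and releases hydrogen peroxide. Its levels in MycF/F,ERT2-Cre livers were 0.08, 0.09, 0.12 and 0.09 on Wy-14643, against -0.73, -0.26, -0.83 and -0.69 on control diet. The MycF/F levels were 0.07, 0.19 and 0.13 on Wy-14643, against -0.85 on the control array. Here too the 7 Wy-14643 arrays lay above the 5 control arrays, and the second control array of MycF/F,ERT2-Cre livers was the highest of the controls. The difference was 0.72 (SE 0.11, 95% interval 0.49 to 0.96, limma adjusted p 0.000605), or 1.65-fold, in MycF/F,ERT2-Cre livers. It was 0.98 (SE 0.18, limma adjusted p 0.00486), or 1.98-fold, in MycF/F livers.

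Smox was read by 1 probe, whose median Cy5 signal was 6.51 times background. The slides gave Smox differences of 0.58, 0.92 and 0.79 in MycF/F,ERT2-Cre livers. With median-centred log ratios in place of loess, Smox in MycF/F,ERT2-Cre livers stood at 0.67 with a limma adjusted p of 0.137, and with the Cy5 signal alone Odc1 there stood at 0.69 with a limma adjusted p of 0.119. In MycF/F livers the Odc1 call was lost with either setting (1.09, limma adjusted p 0.447, and 1.19, limma adjusted p 0.244), and the Smox call with median-centred log ratios (0.77, limma adjusted p 0.823).

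The promoters of the 2 genes that rose together are shown so that their letters can be compared. The sequences are the 250 bases before the transcription start in RefSeq, build GRCm38.p6, both on the plus strand, Odc1 at chr12:17544623-17544872 and Smox at chr2:131491612-131491861, and capitals mark CACGCG on either strand.
Odc1: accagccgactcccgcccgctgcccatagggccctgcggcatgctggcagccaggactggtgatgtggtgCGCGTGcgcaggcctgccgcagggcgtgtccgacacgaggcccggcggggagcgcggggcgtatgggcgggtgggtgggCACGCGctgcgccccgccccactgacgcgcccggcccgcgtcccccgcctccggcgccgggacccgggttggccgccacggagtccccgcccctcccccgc
Smox: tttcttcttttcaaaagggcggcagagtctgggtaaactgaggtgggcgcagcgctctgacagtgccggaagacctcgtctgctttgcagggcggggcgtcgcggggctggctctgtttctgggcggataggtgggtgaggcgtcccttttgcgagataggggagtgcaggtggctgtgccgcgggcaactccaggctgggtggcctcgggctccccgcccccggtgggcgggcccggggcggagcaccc
The motifs searched, on both strands, were CACGTG, the E-box that MYC binds, CACGCG, a variant of it, and DR1, a pair of AGGTCA copies with 1 base between them that PPARα binds with its partner RXR. The Odc1 window held CACGCG 2 times and neither of the other 2, and the Smox window held none. Over 32851 promoter windows of the same length, 6.02% held CACGTG, 7.62% held CACGCG and 0.0335% held DR1. Among the other genes, 1 of the 2 Sms windows held CACGTG and the other CACGCG, the Oaz1 window held CACGCG, and those of Amd1, Oaz2, Sat1 and Paox held none. No promoter window was available for Srm and Azin1, so neither was searched for these motifs. No 2 matches overlapped, and a match or its absence describes these letters only.

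Srm, the gene of spermidine synthase, had levels of -0.54, -0.43, -0.37 and -0.47 in Wy-14643-fed MycF/F,ERT2-Cre livers, against 0.01, 0.17, -0.07 and 0.11 in the same genotype on control diet. It had levels of 0.04, 0.22 and 0.31 in MycF/F livers on Wy-14643, against 0.41 on their control array. The 4 arrays of Wy-14643-fed MycF/F,ERT2-Cre livers lay below the other 8. On Wy-14643 it fell by 0.51 on the log2 scale in MycF/F,ERT2-Cre livers (SE 0.09, 95% interval -0.69 to -0.32, limma adjusted p 0.00136), a 1.42-fold change. In MycF/F livers the difference was -0.22 (SE 0.14, 95% interval -0.52 to 0.09, limma adjusted p 0.518). With the Cy5 signal alone the difference in MycF/F,ERT2-Cre livers was 0.04 (limma adjusted p 0.969), a turn of its direction, and with median-centred log ratios it was -0.41 (limma adjusted p 0.544).

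The other enzymes of synthesis were not called on Wy-14643. Sms had levels of -0.29, -0.12, -0.07 and 0.04 in Wy-14643-fed MycF/F,ERT2-Cre livers, against 0.13, 0.10, 0.01 and 0.02 on control diet, a difference of -0.18 (SE 0.09, limma adjusted p 0.211). The 2 sets of arrays overlapped. Amd1 was at -0.49, -0.44, -0.28 and -0.38 on Wy-14643, against -0.51, -0.13, -0.05 and 0.35 on control diet, a difference of -0.31 (SE 0.14, limma adjusted p 0.182). Its lowest array was a control array, the first MycF/F,ERT2-Cre one, and without that array the difference was -0.45 with a limma adjusted p of 0.0226. It passed as well with the deposited log ratios (-0.59, limma adjusted p 0.0449), with Cy5 alone (-0.66, limma adjusted p 0.0118) and without slide 1 (-0.51, limma adjusted p 0.0216), but not with median-centred log ratios (-0.21, limma adjusted p 0.85). Among MycF/F livers Amd1 differed by -0.32 (SE 0.24, limma adjusted p 0.609) and Sms by 0.20 (SE 0.14, limma adjusted p 0.585). Amd1 has a near-identical copy, Amd2, on this array, and signal of one may reach the probe of the other, so both are uncertain.

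None of the 3 regulators of ornithine decarboxylase was called on Wy-14643 by limma. Oaz1, whose probe had a median signal 445 times background, had levels of -0.10, -0.14, -0.09 and -0.13 in Wy-14643-fed MycF/F,ERT2-Cre livers, against -0.21, -0.58 and -0.39 on the 3 control arrays with a value. Those arrays did not overlap, and the difference was 0.28 (SE 0.09, 95% interval 0.07 to 0.48, limma adjusted p 0.0655), which missed the threshold. It passed with slide as a block (0.28, limma adjusted p 0.0454), without slide 1 (0.37, limma adjusted p 0.0201) and without the second control array (0.37, limma adjusted p 0.0192). In MycF/F livers Oaz1 differed by 0.07 (SE 0.14, limma adjusted p 0.915).

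Oaz2 differed by 0.03 in MycF/F,ERT2-Cre livers and by -0.19 in MycF/F livers, and Azin1 by -0.08 and 0.03, with limma adjusted p of 0.613 or more. The 4 probes of Oaz2 ran from -0.35 to 0.12 in MycF/F,ERT2-Cre livers and the 3 of Azin1 from -0.08 to 0.17, none of them called, so the probes of each gene did not share a direction. The Azin1 value of the second Wy-14643 array of MycF/F,ERT2-Cre livers and the Oaz1 value of the first control array of that genotype were left out as outlier spots.

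Beside Smox, the turnover genes were not called by their brightest probes. Sat1, which takes polyamines toward export and breakdown, had levels of 0.14, 0.19, 0.09 and 0.17 in Wy-14643-fed MycF/F,ERT2-Cre livers, against 0.05, 0.43, 0.58 and 0.35 on control diet. The difference was -0.21 (SE 0.11, limma adjusted p 0.243), and the groups overlapped through the first control array, without which it was -0.31 with a limma adjusted p of 0.0452. The second Sat1 probe, with no value on that array, differed by -0.29 (SE 0.11, limma adjusted p 0.0861). Its levels were 0.12 to 0.47 on Wy-14643, against 0.48 to 0.75 on control diet. Paox, a peroxisomal oxidase of acetylated polyamines, had levels of 0.15, 0.07, 0.02 and -0.02 on Wy-14643, against 0.28, -0.15, -0.52 and -0.20 on control diet, a difference of 0.20 (SE 0.14, limma adjusted p 0.403). Its second probe rose by 0.45 (SE 0.11, limma adjusted p 0.015), with no value on the first control array, which was the highest of the control arrays for the first probe. The 2 Paox probes in MycF/F livers differed by 0.01 and 0.13 and the 2 Sat1 probes by -0.21 and -0.33, none of them called.

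In all, 6 of the 20 probes were called in MycF/F,ERT2-Cre livers, namely the 3 of Odc1 and those of Srm, Smox and the second of Paox, where 16.6% of all probes fitted were called. Of the same probes 3 were called in MycF/F livers, 2 of Odc1 and that of Smox, where 6.61% of all probes were. Of the 10 genes, 4 had arrays on Wy-14643 and control diet that did not overlap in MycF/F,ERT2-Cre livers (Odc1, Smox and Oaz1 higher, Srm lower), where 21.7% of all features did not overlap, 11.6% higher and 10.1% lower. Against the 1 MycF/F control array 8 of the 10 genes did not overlap, 4 higher and 4 lower, where 62.3% of all features did not, 30.3% higher and 32% lower.

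**Figure D2:**
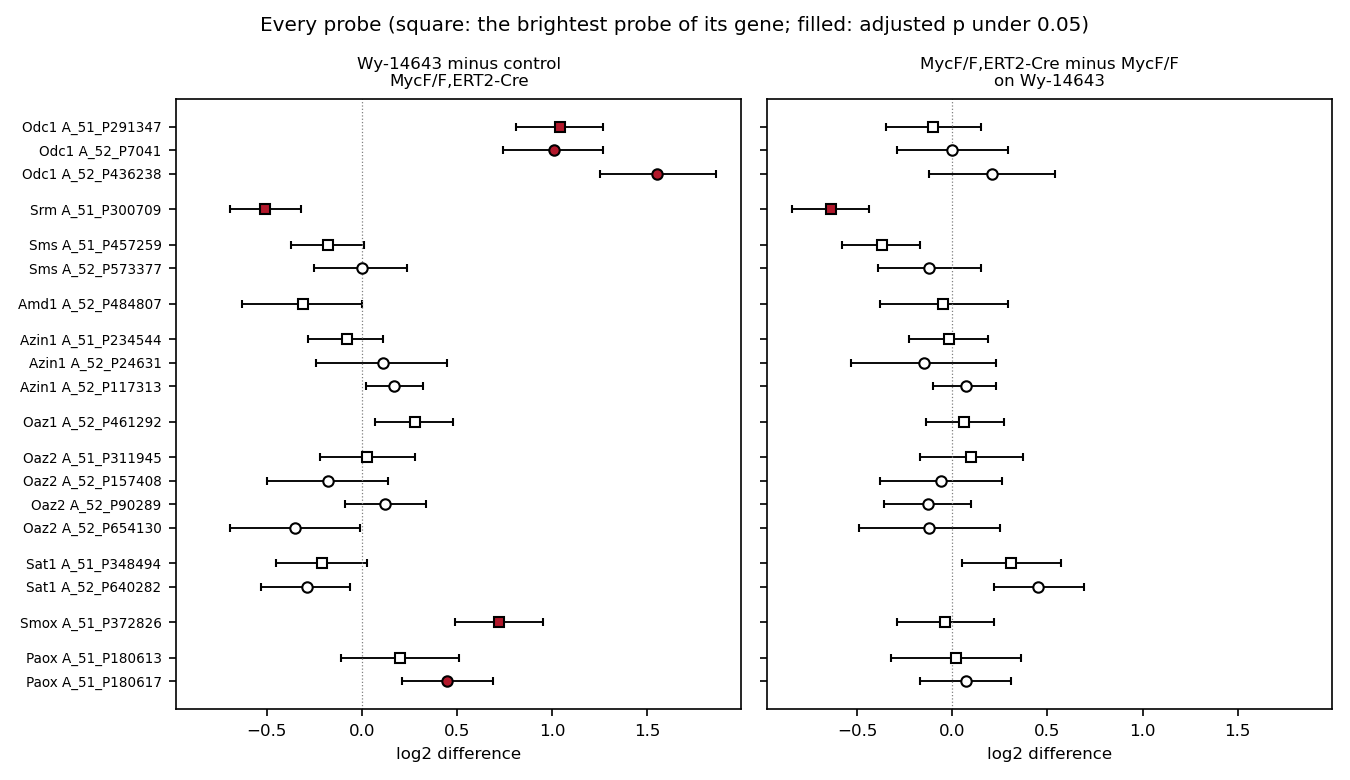
Log2 differences with 95% intervals for all 20 probes of the polyamine genes, squares for the brightest probe of a gene and filled symbols for a limma adjusted p under 0.05. On the left (Wy-14643 minus control diet in MycF/F,ERT2-Cre livers) the 3 Odc1 probes lie between 1.01 and 1.55, and on the right (MycF/F,ERT2-Cre minus MycF/F on Wy-14643) the Srm probe at -0.64 is the one filled symbol.

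The design also asks whether these levels differed by genotype on Wy-14643. Of the 10 genes 1, Srm, was called, lower in MycF/F,ERT2-Cre livers, where 0.0676% of 25164 features (17) were called, 0.0159% higher and 0.0517% lower. Odc1 and Smox were not called. The difference of Srm was -0.64 (SE 0.09, 95% interval -0.84 to -0.44, limma adjusted p 0.0259), or 1.56-fold, with means of -0.45 ± 0.07 (SD, n = 4) in MycF/F,ERT2-Cre livers and 0.19 ± 0.14 (SD, n = 3) in MycF/F livers. All 4 MycF/F,ERT2-Cre arrays lay below all 3 MycF/F arrays, and the differences within slides 1, 2 and 3 were -0.58, -0.65 and -0.73. The same 4 MycF/F,ERT2-Cre arrays enter this comparison and the Wy-14643 comparison above, so the 2 calls of Srm are not separate evidence. The call was lost without any 1 of the 7 Wy-14643 arrays, with differences from -0.72 to -0.58 and limma adjusted p up to 0.194, and with the replicate number as a block, where it was -0.65 with a limma adjusted p of 0.079. It was lost as well with the deposited log ratios (-0.73, limma adjusted p 0.162), with median-centred log ratios (-0.60, limma adjusted p 1) and with Cy5 alone (-0.50, limma adjusted p 1).

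Sms and Sat1 also had groups that did not overlap on Wy-14643, which makes 3 of 10 genes, where 13.8% of all features did not overlap, 7.32% higher and 6.47% lower. Sms was at -0.29 to 0.04 in MycF/F,ERT2-Cre livers, against 0.37, 0.30 and 0.12 in MycF/F livers, a difference of -0.37 (SE 0.09, limma adjusted p 0.18). Its second probe, well above background on 7 of 12 arrays, differed by -0.12 (SE 0.12, limma adjusted p 0.933). Sat1 was at 0.09 to 0.19 in MycF/F,ERT2-Cre livers, against -0.05, -0.36 and -0.08 in MycF/F livers, a difference of 0.31 (SE 0.12, limma adjusted p 0.454), and its second probe differed by 0.45 (SE 0.11, limma adjusted p 0.169). Neither gene passed the test. Odc1 differed by -0.10 (95% interval -0.35 to 0.15, limma adjusted p 0.952) and Smox by -0.04 (95% interval -0.29 to 0.22, limma adjusted p 0.99).

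On control diet, with 1 MycF/F array, 0 of 10 genes and 0 of 24895 features were called by limma, while 441 features had an unadjusted p under 0.05. Srm was 1 of these, with a difference of -0.35 (SE 0.13, limma adjusted p 1). It was at 0.06 ± 0.11 (SD, n = 4) in MycF/F,ERT2-Cre livers and at 0.41 on the MycF/F array. The lone array lay outside the range of the MycF/F,ERT2-Cre arrays for 3 genes (Sat1 and Smox higher, Srm lower in MycF/F,ERT2-Cre livers), where this held for 29% of all features, 12.7% higher and 16.3% lower. The differences of Odc1 and Smox were -0.16 (SE 0.17) and 0.23 (SE 0.17), with limma adjusted p of 1 for both.

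The difference of the Wy-14643 effects, MycF/F,ERT2-Cre minus MycF/F, was called for 0 of 10 genes and for 0 of 24870 features by limma, with 538 features at an unadjusted p under 0.05. The Wy-14643 effect on Odc1 differed between genotypes by 0.06 (95% interval -0.38 to 0.50), that on Smox by -0.26 (95% interval -0.71 to 0.19) and that on Srm by -0.29 (95% interval -0.64 to 0.06). Sms had the lowest unadjusted p of the 10 genes, at a difference of -0.37 (95% interval -0.74 to -0.01, limma adjusted p 1). These intervals rest on a single MycF/F control array.

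**Figure D3:**
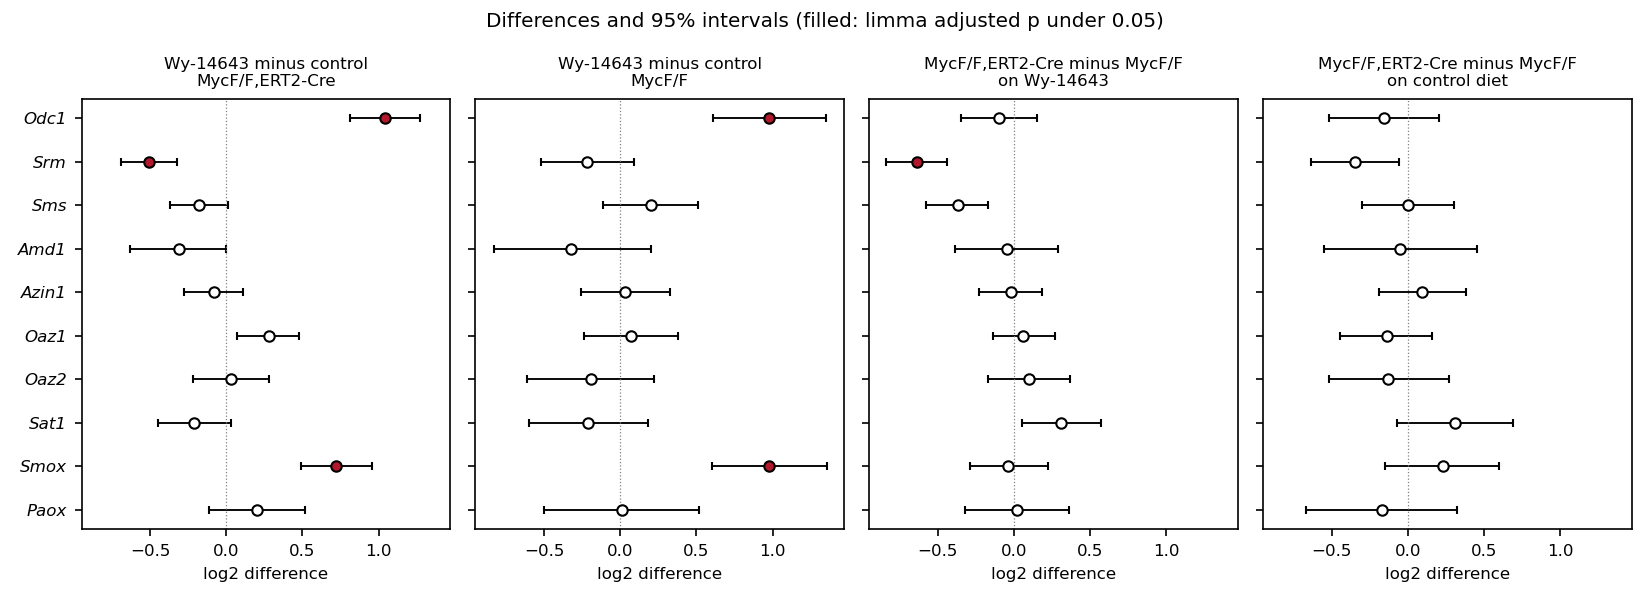
Log2 differences with 95% intervals for the 10 genes in 4 comparisons (panels), filled where the limma adjusted p is under 0.05. Odc1 and Smox are filled in both Wy-14643 panels, Srm is filled for Wy-14643 in MycF/F,ERT2-Cre livers at -0.51 and for genotype on Wy-14643 at -0.64, and nothing is filled on control diet.

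Genes around the pathway were read from 5 lists of 35 genes, of which 27 were measured. On Wy-14643, 4 of them rose and 3 fell in MycF/F,ERT2-Cre livers, with a median difference of -0.02, where 8.88% of all features rose and 7.33% fell. Of the same genes 2 rose and 2 fell in MycF/F livers, with a median of 0.06, where 3.32% of all features rose and 3.18% fell. In both genotype comparisons and in the difference of the Wy-14643 effects none of the 27 was called by limma.

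Among the 7 measured genes of precursor supply, Otc and Mat2a were called in both genotypes. Otc, the urea cycle enzyme that uses ornithine for citrulline, was at -0.99 and -1.05 in Wy-14643-fed MycF/F,ERT2-Cre livers, against 0.62 and 0.73 on control diet, on the 2 arrays of each group with a value. It fell by 1.70 on the log2 scale there (SE 0.11, limma adjusted p 7.15e-05) and by 1.97 in MycF/F livers, with 2 and 1 arrays (SE 0.14, limma adjusted p 0.000291). Mat2a, a methionine adenosyltransferase that makes S-adenosylmethionine, rose by 0.53 in MycF/F,ERT2-Cre livers, with 4 and 3 arrays (SE 0.14, limma adjusted p 0.0219), and by 0.81 in MycF/F livers (SE 0.21, limma adjusted p 0.0387). With Cy5 alone the calls of Mat2a were lost in MycF/F,ERT2-Cre livers (0.56, limma adjusted p 0.091) and MycF/F livers (0.70, limma adjusted p 0.378), and that of Otc in MycF/F livers (-1.53, limma adjusted p 0.262). The MycF/F call of Mat2a was also lost with the deposited log ratios (0.85, limma adjusted p 0.065), with median-centred log ratios (0.88, limma adjusted p 0.209) and with no filter on dim probes (0.81, limma adjusted p 0.0515). Arg1, the arginase that makes ornithine, differed by 0.11 with 3 and 2 arrays (limma adjusted p 0.672) and by -0.06 with 2 and 1 arrays (limma adjusted p 0.947).

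Mtap, which recycles the methylthioadenosine released by Srm and Sms, was at 0.33, 0.08, 0.10 and 0.17 in Wy-14643-fed MycF/F,ERT2-Cre livers, against -0.07, -0.75, -1.57 and -1.38 on control diet. It rose by 1.11 (SE 0.25, limma adjusted p 0.00891) there and by 1.5 in MycF/F livers (SE 0.41, limma adjusted p 0.0487), and was the one called gene of 5 in the methionine salvage list. The MycF/F call was lost under 13 of 22 alternatives, among them the deposited log ratios (limma adjusted p 0.134), and the MycF/F,ERT2-Cre call with median-centred log ratios (1.05, limma adjusted p 0.1). Dhps, which uses spermidine to make hypusine on the translation factor eIF5A, rose by 0.48 in MycF/F,ERT2-Cre livers (SE 0.10, limma adjusted p 0.00744), and the factor's gene Eif5a differed by 0.40 with 3 and 2 arrays (SE 0.16, limma adjusted p 0.147). The Dhps call was lost with median-centred log ratios (0.40, limma adjusted p 0.49) and with Cy5 alone (0.22, limma adjusted p 0.805). In MycF/F livers Dhps differed by 0.46 (SE 0.17, limma adjusted p 0.161), and it passed with the slide block (0.53, limma adjusted p 0.0438), without slide 1 (0.58, limma adjusted p 0.0146) and without MycF/F Wy-14643 array 1 (0.58, limma adjusted p 0.0485).

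Of 7 measured transport genes, 1 rose and 1 fell in MycF/F,ERT2-Cre livers. Atp13a2, a lysosomal exporter of polyamines, fell by 0.58 there (SE 0.09, limma adjusted p 0.000577) and by 0.60 in MycF/F livers (SE 0.14, limma adjusted p 0.0249). Both calls of Atp13a2 were lost with median-centred log ratios (limma adjusted p 0.314 and 1) and with Cy5 alone (limma adjusted p 0.096 and 0.501), and the MycF/F call also with the deposited log ratios (-0.81, limma adjusted p 0.0718). Atp13a5, of the same family, rose by 0.42 in MycF/F,ERT2-Cre livers (SE 0.10, limma adjusted p 0.0105) and differed by 0.45 in MycF/F livers (SE 0.16, limma adjusted p 0.134). The Atp13a5 call was lost under 5 alternatives, at 0.05 with the deposited log ratios (limma adjusted p 0.944), 0.34 with median-centred ones (limma adjusted p 0.218), 0.29 with Cy5 alone (limma adjusted p 0.255), 0.32 with no background correction (limma adjusted p 0.096) and 0.33 without slide 1 (limma adjusted p 0.082). The remaining list of further enzymes held 1 called gene of 4, Amd2, which fell by 0.73 in MycF/F,ERT2-Cre livers with 3 and 4 arrays (SE 0.19, limma adjusted p 0.0235) and is uncertain as the copy of Amd1. The Amd2 call was lost with median-centred log ratios (-0.62, limma adjusted p 0.412) and with Cy5 alone (-0.47, limma adjusted p 0.239).

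**Figure D4:**
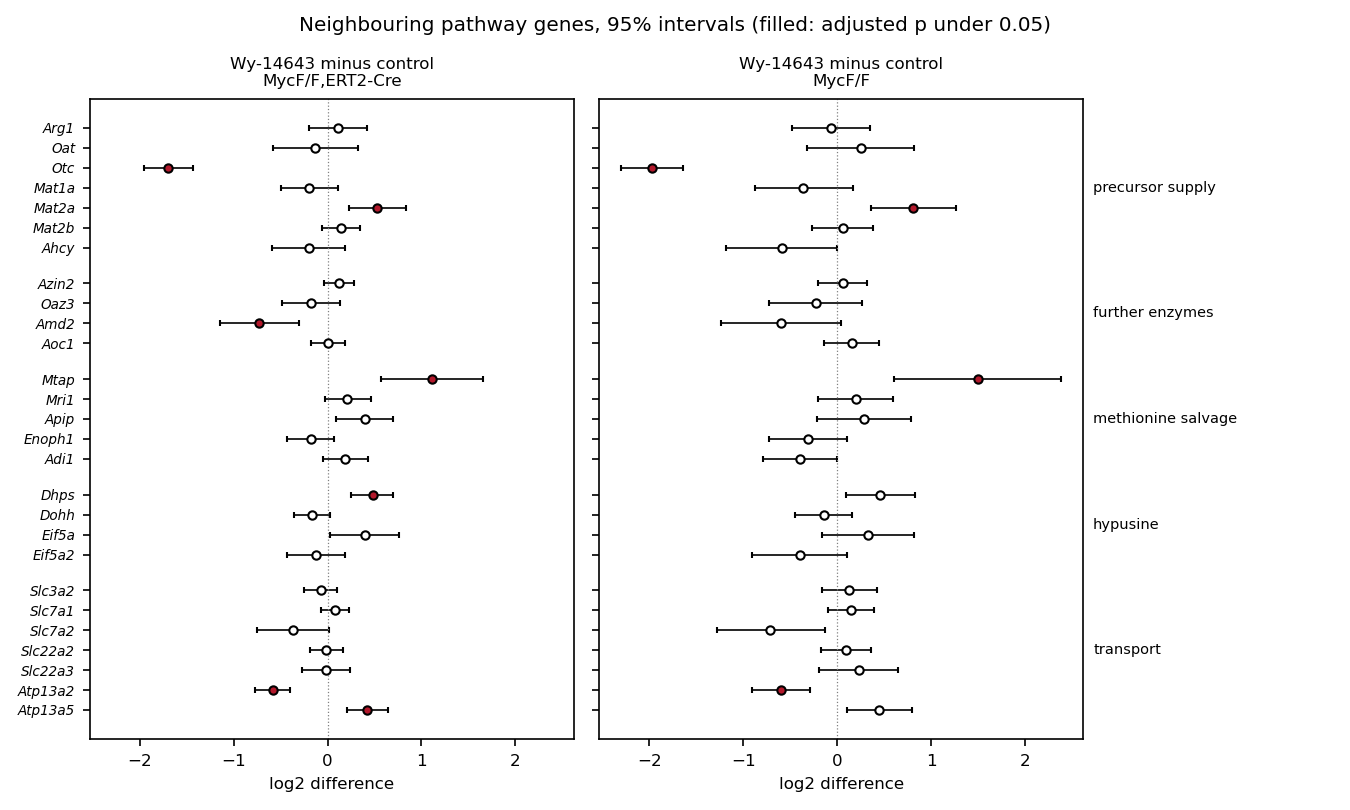
Log2 differences with 95% intervals of 27 genes around the polyamine pathway, Wy-14643 minus control diet, in MycF/F,ERT2-Cre livers (left) and MycF/F livers (right), filled where the limma adjusted p is under 0.05. Otc lies lowest in both panels, at -1.70 and -1.97, and Mtap highest, at 1.11 and 1.5.

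The 5 genes with the levels most like those of Odc1 over the 12 arrays, of 11631 genes with a symbol and a value on all arrays, were Trp53inp2 (Pearson r 0.981), Sar1b (0.977), Plin5 (0.977), Tubb4b (0.976) and Ptpa (0.974). The arrays share their diets, slides and reference, and they fall apart by diet, so the coefficients are descriptions. Plin5, a lipid droplet protein, rose by 1.30 in MycF/F,ERT2-Cre livers (SE 0.13, limma adjusted p 2.98e-05) and by 1.36 in MycF/F livers (SE 0.21, limma adjusted p 0.00209). It was picked for its likeness to Odc1, so these diet differences are not separate evidence. Between the polyamine genes, the 45 pairs ran from -0.74 (Sat1 and Paox) to 0.89 (Odc1 and Smox), with a median of -0.01. After each group's mean was taken away, the pair Odc1 and Smox stood at -0.19 and the pair Sat1 and Paox at -0.93, the lowest of the 45. The lone MycF/F control array cannot deviate from its own mean, so it adds nothing to these values.

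Some markers of liver cell types were lower on Wy-14643 as well. In MycF/F,ERT2-Cre livers 2 of 4 measured hepatocyte markers, 6 of 9 Kupffer cell markers, 4 of 8 stellate cell markers and 3 of 7 endothelial markers fell by limma, and 0 rose, where 7.33% of all features fell. Of the same lists 2 of 3, 3 of 8, 0 of 8 and 1 of 7 measured markers fell in MycF/F livers, where 3.18% of all features fell. Each mean below was taken over the markers with a value on that array, so the markers averaged can differ between arrays. In MycF/F livers, 3 of the 4 hepatocyte markers and 8 of the 9 Kupffer cell markers had values on both diets. The mean level of the hepatocyte markers was -0.26 to 0.17 in Wy-14643-fed MycF/F,ERT2-Cre livers, against 0.79 to 1.30 on control diet, and 0.00 to 0.33 in MycF/F livers on Wy-14643, against 0.84 on the control array. The mean of the Kupffer cell markers was -0.35 to -0.14 against 0.19 to 0.90 in MycF/F,ERT2-Cre livers and -0.75 to -0.40 against 0.19 in MycF/F livers. On Wy-14643 the Kupffer markers had a median genotype difference of 0.42, with 0 of 9 called by limma and 6 of 9 at an unadjusted p under 0.05 (8.4% of all features), and the ranges above do not overlap, beside the lower Srm and the higher Sat1 values. The endothelial markers had a median genotype difference of 0.19, with 0 of 7 called by limma and 3 of 7 at an unadjusted p under 0.05. Their ranges, given below, do not overlap either, while those of hepatocyte and stellate cell markers do. For stellate cell markers the mean was -0.31 to -0.05 against 0.21 to 0.30 in MycF/F,ERT2-Cre livers, and for endothelial markers -0.16 to -0.12 against 0.12 to 0.20. The same means in MycF/F livers were -0.27 to 0.03 against 0.04 for stellate cell markers and -0.40 to -0.21 against -0.01 for endothelial markers. All measured markers of these 4 lists were well above background on all 12 arrays. In whole-liver RNA fewer cells of a type and less RNA per cell cannot be told apart, and the part of these shifts in the results above was not tested.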

How the data were processed

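Whole-liver RNA of 4 groups was read on 12 Agilent mouse arrays, grouped by the labels' titles. The authors deposited spot intensity values, namely the median signal of either dye and of its local background, from scans read by Agilent Feature Extraction 11.0.1.1, a version that the headers and the submitters' processing notes give. The deposited log10 ratio of Cy5 to Cy3, corrected by that software per the file headers, served as an alternative.

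In R 4.3.3 with limma 3.58.1 and data.table version 1.17.8, signals were corrected with normexp (offset 50), and log2 ratios were loess-normalized within each array. Outlier spots were left out and spots of a probe averaged. Probes stayed in the analysis where Cy5 was called well above background on 3 or more of 12 arrays (for several spots, a share of 0.5 of them). Each gene was given by its brightest kept probe, and every probe of the 10 genes was also fitted. Of 17440 RefSeq mRNA accessions 16792 were matched to symbols in a RefSeq table of GRCm38.p6; no probe was placed on a genome.

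A model with 1 mean per group (8 residual degrees of freedom where no value was missing) was fitted to each feature by least squares. The variances were moderated over all features with squeezeVar of limma, and the tests were two-sided. The procedure was tested on simulated data without slide effects, for the Wy-14643 difference in MycF/F,ERT2-Cre livers only. The lone MycF/F control array is assumed to vary like the other groups. The 5 comparisons were the diets within each genotype, the genotypes within each diet, and the difference of the 2 diet effects. The 12 arrays limit the precision. The alternatives changed normalization, background correction, outlier spots, the filter on dim probes, the probe rule, blocks of slide or replicate number, and the arrays included. The genes and lists were chosen with earlier results of these data known. The named genes were all 10 members, called genes of the 5 pathway lists with at most 3 others a list, Myc, 1 PPARα target, and the 5 genes most like Odc1, of which 1 is described; 2 further genes of this rule are not reported here. Marker lists of cholangiocytes, lymphocytes, neutrophils, erythroid, pancreatic acinar and fat cells were also read, and of their 23 measured genes 1 rose and 5 fell with Wy-14643 in MycF/F,ERT2-Cre livers by limma.

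Same-numbered replicates correlated, in deviations from group means, at -0.07 to 0.42 over 10 pairs (median 0.14). Differently numbered ones correlated at -0.40 to 0.35 over 30 pairs (median -0.11). Some same-numbered arrays also shared a slide. Same-numbered arrays on different slides correlated at -0.07 to 0.29, and differently numbered arrays of the same slide at 0.08 to 0.35. The main fit did not take the numbers as pairs. Arrays of 1 slide correlated at 0.08 to 0.42 over 13 pairs, and the others at -0.40 to 0.29 over 27 pairs.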

Additional observations from a re-analysis of the deposited data

How the results depend on the processing

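The single MycF/F control array and outlier spots on slide 1 limit these values. So do the signals of Smox, Sms and Amd1, the lowest of the 10 genes at 4.78 to 7.14 times background. The cause of the shifts below was not tested. The alternatives left 1409 single-gene values at the same direction and the same side of the threshold, took 66 below it, 17 past it and reversed 75, and left 234 counts within 1.5 times and moved 55 further. In MycF/F,ERT2-Cre livers, 4080 features rose or fell on Wy-14643, against 831 with median-centred log ratios and 1285 with Cy5 alone. There 3 of the 10 genes were called, against 1 with median-centred log ratios and 5 without slide 1, and 6 probes, against 3 with either of the first 2 settings. In MycF/F livers 1620 features were called, against 1048 with the deposited log ratios, 184 median-centred, 256 with Cy5 alone and 2810 without slide 1. The 2 called genes became 0 median-centred and 1 with Cy5 alone, and the 3 called probes became 0 and 1. For genotype on Wy-14643, 17 features were called, against 34 with outlier spots kept, 27 with the mean of all probes, 31 with the slide block and 108 without slide 1. With the deposited log ratios, median-centred, with Cy5 alone and with the replicate block that count was 0, as were the 1 gene (Srm) and its probe. For genotype on control diet, 0 became 4 with Cy5 alone and 2 without slide 1. Leaving out 1 array at a time gave 3 to 5 called genes in MycF/F,ERT2-Cre livers (5 without the first control array), and for genotype on Wy-14643 0 to 27 features, 0 to 1 genes and 0 to 1 probes. Whether the replicate numbers pair the samples was not settled, and the replicate block ended no other call of the 10 genes.

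Srm reversed in MycF/F,ERT2-Cre livers with Cy5 alone (0.04), and the other reversals concern values that were not called. With Cy5 alone, the diet difference in MycF/F,ERT2-Cre livers was -0.07 for Arg1 and 0.14 for Sat1. The genotype difference on control diet was then 0.41 for Amd1, 0.11 for Oaz1, 0.26 for Odc1, 0.09 for Paox and -0.41 for Sat1, and the difference of the effects -0.57 for Amd1, -0.49 for Odc1 and 0.36 for Srm. Median-centred log ratios gave 0.07 for Azin1 in MycF/F,ERT2-Cre livers, 0.19 for Arg1 in MycF/F livers, -0.02 for Sms on control diet, and 0.03, 0.01 and 0.03 for Amd1, Azin1 and Smox by genotype on Wy-14643. The deposited log ratios gave -0.06 for Oaz2 in MycF/F,ERT2-Cre livers, and 0.03, -0.02 and -0.01 for Arg1, Azin1 and Paox in MycF/F livers. They gave 0.02 for Amd1 and 0.01 for Oaz2 by genotype on control diet, and -0.14 for Amd1 and -0.04 for Odc1 in the difference of the effects. The mean of all probes gave 0.07 for Azin1 and -0.09 for Oaz2 in MycF/F,ERT2-Cre livers, -0.05 for Oaz2 and 0.04 for Odc1 by genotype on Wy-14643, 0.01 for Oaz2 and -0.06 for Sms on control diet, and -0.07 for Oaz2 in the difference of the effects. The slide block gave 0.00 for Oaz1 and -0.04 for Paox in MycF/F livers, 0.00 for Azin1 on Wy-14643, 0.04 for Amd1 and -0.01 for Sms on control diet, and -0.11, -0.06 and -0.03 for Amd1, Odc1 and Sat1 in the difference of the effects. The replicate block gave 0.05 for Azin1 on Wy-14643 and -0.01 for Sms on control diet. Without slide 1 the values were -0.09 for Paox on Wy-14643, 0.18 for Amd1 and -0.05 for Sms on control diet, and -0.23, -0.16 and -0.05 for Amd1, Odc1 and Sat1 in the difference of the effects. With no background correction Sat1 stood at -0.02 in that difference. Leaving out 1 array gave, in MycF/F,ERT2-Cre livers, -0.06 to 0.11 for Oaz2, and in MycF/F livers -0.19 to 0.06 for Arg1, -0.01 to 0.08 for Azin1 and -0.10 to 0.09 for Paox. It gave -0.09 to 0.03 for Amd1, -0.08 to 0.02 for Azin1 and -0.06 to 0.13 for Paox on Wy-14643, -0.19 to 0.09 for Amd1 and -0.02 to 0.02 for Sms on control diet, and -0.14 to 0.15, -0.05 to 0.16 and -0.10 to 0.08 for Amd1, Odc1 and Sat1 in the difference of the effects. Among pathway genes, Otc in MycF/F,ERT2-Cre livers kept its call under all 23 settings. With values on 2 arrays of each diet there and none on slide 1, many of these settings could not change its difference. In MycF/F livers Otc lost its call with Cy5 alone (-1.53). Mtap in MycF/F livers lost its call with the deposited log ratios (1.68), median-centred (1.44), with Cy5 alone (1.05), with outlier spots kept and with no filter on dim probes (both 1.5), and without any 1 of the 3 MycF/F Wy-14643 arrays, any 1 of the 4 MycF/F,ERT2-Cre Wy-14643 arrays or MycF/F,ERT2-Cre control array 2 (1.48 to 1.53), and Atp13a2 there without any 1 of the 3 MycF/F Wy-14643 arrays (-0.60 to -0.59). Mat2a lost it in MycF/F,ERT2-Cre livers without Wy-14643 array 3 or 4 or control array 4 (0.44 to 0.53), and in MycF/F livers without MycF/F Wy-14643 array 1 or 2 or MycF/F,ERT2-Cre Wy-14643 array 2, 3 or 4 (0.67 to 0.81). Amd2 lost it without Wy-14643 array 1 or 4 or control array 3 or 4 (-0.71 to -0.61).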
